A study of Rattus norvegicus with 12 samples.

Results

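The unfolded protein response and the integrated stress response were followed through 10 genes: Hspa5, Pdia4, Herpud1, Xbp1, Atf4, Ddit3, Trib3, Chac1, Asns and Sesn2. They were taken by symbol from the 37209 symbols of a gene count table of rat brain RNA, and each symbol had a row. The table holds 12 libraries from brains of Sprague Dawley rats at postnatal day 21, in 4 groups of 3. The groups are middle cerebral artery occlusion (MCAO), which blocks the main artery of the lateral forebrain, its sham group LN, pontine infarction, a stroke of the brainstem, and its sham group PN. Each sham group was matched to its stroke by the first letter of the sample codes; the brain region taken and the time after stroke are not given in the labels. The code of 1 MCAO column is in no sample title, so that column is called the unnumbered MCAO library. Nothing in the labels says how many rats were pooled in a library, so p-values measure the spread between these libraries.

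When unfolded proteins accumulate in the endoplasmic reticulum (ER), the sensors IRE1, ATF6 and PERK signal to the nucleus. Spliced XBP1 and cleaved ATF6 switch on chaperones and degradation factors of the ER, while PERK and the other kinases of the initiation factor eIF2alpha slow translation in general and favour that of ATF4. ATF4 then switches on genes for amino acid supply, for redox balance and, with CHOP (the product of Ddit3), for cell death. PERK shares this ATF4 branch with kinases that sense amino acid shortage, haem shortage and double-stranded RNA, and the branch is known to be engaged in brain ischaemia. Total Xbp1 counts do not tell spliced from unspliced mRNA, and Atf4 is controlled largely at translation, so neither count reads the activity of its protein.

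The letters these factors are known to bind were looked up in the 250 bases before the start of each gene, in RefSeq promoters of build GRCr8, matched by symbol. The counts were made on Rnor_6.0, so the coordinates below belong to GRCr8 alone. The ER stress response element was searched as CCAAT and CCACG with any 9 bases between, its second form as ATTGG and CCACG with any 1 base between, the CEBP-ATF response element as TGATGCAA and the core of the XBP1 element as TGACGTG, on both strands. Of 33469 promoters, 0.0657% held the first, 0.0418% the second, 0.693% the third and 1.54% the fourth. Among the 10 genes, 4 held at least 1 match, and these stretches are printed because they hold the matches; the CEBP-ATF element is in Herpud1, of the ER genes, as well as in Chac1, of the ATF4 targets. Capitals mark the matches: in Hspa5 the XBP1 core from -135 to -129 and the ER stress element from -43 to -25, counted from the start of the gene, in Xbp1 the ER stress element from -65 to -47, in Herpud1 the CEBP-ATF element on the reverse strand from -184 to -177 and the second ER stress form from -124 to -114, and in Chac1 the CEBP-ATF element on the reverse strand from -167 to -160.
Hspa5, chr3:38452866-38453006, plus strand: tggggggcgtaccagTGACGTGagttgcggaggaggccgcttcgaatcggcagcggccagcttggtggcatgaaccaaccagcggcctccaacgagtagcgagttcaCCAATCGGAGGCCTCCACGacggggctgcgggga
Xbp1, chr14:84604543-84604591, plus strand: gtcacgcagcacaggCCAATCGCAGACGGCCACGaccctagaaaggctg
Herpud1, chr19:10614806-10614906, minus strand: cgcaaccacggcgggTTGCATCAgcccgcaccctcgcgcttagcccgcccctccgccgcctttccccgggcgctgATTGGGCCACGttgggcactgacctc
Chac1, chr3:126795949-126795986, plus strand: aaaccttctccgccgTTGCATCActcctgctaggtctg
The windows of Pdia4, Atf4, Ddit3, Trib3, Asns and Sesn2 held none of these letters. A match is a description of the sequence, and no match says only that the letters are not in this window.

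Library totals ran between 19805815 and 40400676 counts. Levels are given as CPM, each count scaled by the TMM-adjusted size of its library, which compare a gene between libraries but not with another gene, since they are not per length. Differences are log2 changes with their standard error (SE) from edgeR's quasi-likelihood test over all 12 libraries, with p-values adjusted by Benjamini-Hochberg over the 17008 genes tested, and a gene rose or fell where that adjusted p was under 0.05. All 10 genes passed the filter on low counts; Trib3 passed it through the stroke libraries, since its sham libraries held only 3 to 9 counts each. Marker genes of other cells moved with the strokes. Beside their calls, 12.5% of all genes tested rose and 6.07% fell in MCAO, and 3.21% rose and 0.87% fell in pontine infarction. The summed level of 7 microglia and macrophage markers was 335 to 824 CPM in MCAO and 175 to 209.9 CPM in sham LN (4 of 7 rose), and 533 to 1359 CPM in pontine infarction and 190.1 to 223 CPM in sham PN (6 of 7 rose). Of 8 neutrophil markers, 5 were tested, and the sum of the list was 50.9 to 570.1 CPM in MCAO and 3.34 to 4.47 CPM in sham LN (5 rose), and 20.6 to 189.6 CPM in pontine infarction and 3.77 to 5.14 CPM in sham PN (2 rose). Of these markers, Mpo and Elane were at 0 in sham LN and Elane was at 0 in sham PN. S100a8, S100a9 and Cxcr2 held 5, 5 and 1 counts summed over sham LN and 11, 16 and 1 over sham PN. They passed the filter through the stroke libraries, so their rises are no separate evidence. Markers of neurons, astrocytes and oligodendrocytes were present in every group, and their sums were lower in the MCAO libraries than in sham LN for oligodendrocytes (6564 to 10651 CPM against 13227 to 19211 CPM) and astrocytes (853 to 1458 CPM against 1714 to 1897 CPM). Of single markers, 1 of 4 tested for oligodendrocytes and 3 of 5 for astrocytes fell in MCAO. In pontine infarction the sums were lower than in sham PN for oligodendrocytes (24267 to 27147 CPM against 37572 to 47442 CPM) and neurons (1341 to 1872 CPM against 2334 to 2653 CPM). There, 1 of 4 tested oligodendrocyte markers and 0 of 7 neuron markers fell. Mbp, at a mean of 33370 CPM in sham PN, made up most of the oligodendrocyte sum. In MCAO replicate 1 the choroid plexus markers, led by Ttr, summed to 1086 CPM, against 1.44 to 4.95 CPM in sham LN. Their part in the results below was not tested, and in bulk tissue a change in the number of cells of a type and a change of RNA per cell cannot be told apart.

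After MCAO, 7 of the 10 genes rose against sham LN and none fell: Hspa5, Pdia4, Xbp1, Atf4, Ddit3, Sesn2 and Trib3. Without Trib3, which passed the filter through the stroke libraries, 6 of 9 rose. Of all genes tested, 12.5% rose and 6.07% fell, 18.6% in all. The median log2 change of the 10 was 0.90, beside -0.00 over all genes tested. In the same 7 genes, Trib3 among them, every MCAO library lay above every sham LN library, which was so for 20.4% of all genes tested. After pontine infarction, 2 of the 10 rose against sham PN, Pdia4 and Trib3, and none fell, where 3.21% of all genes tested rose and 0.87% fell, 4.08% in all. Without Trib3, Pdia4 alone rose. The median of the 10 was 0.14, beside -0.08 over all genes. The libraries did not overlap in 4 of the 10, with pontine infarction above in Hspa5, Pdia4, Xbp1 and Trib3, as in 13.3% of all genes. Trib3 passed the filter through the stroke libraries in this count too. The number of calls turned on single libraries: in MCAO it was 3 without MCAO replicate 1, the unnumbered library or sham LN replicate 2 or 3, 4 without sham LN replicate 1 and 7 without MCAO replicate 2, and 2 when the fit held only MCAO and sham LN. In pontine infarction it was 0 without any 1 of the 6 libraries other than pontine infarction replicate 2, and 2 without that library.

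**Figure D1:**
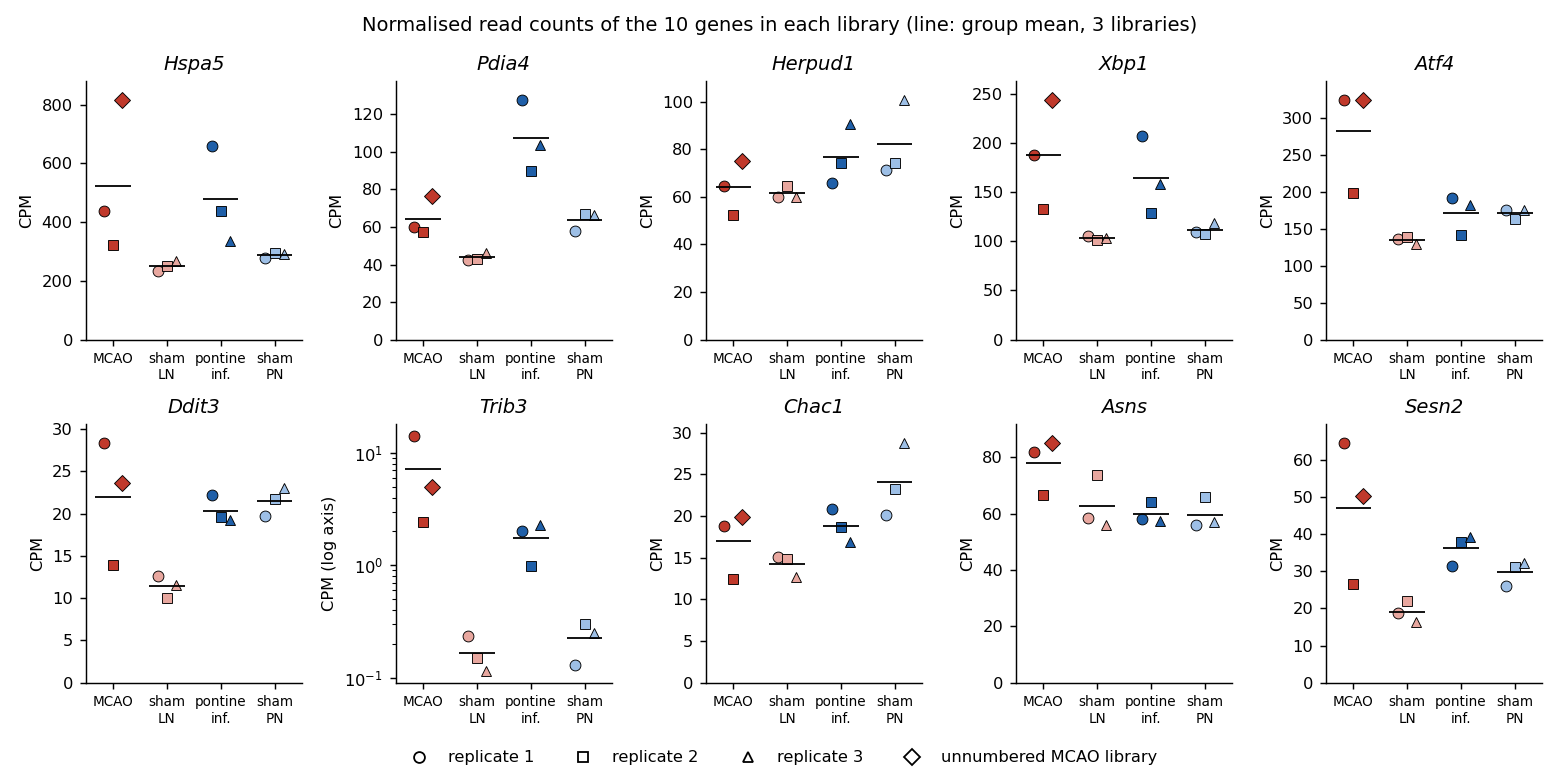
Level of each of the 10 genes (CPM, from 0, with a log axis for Trib3 only) in every library, by group; points are libraries, shapes are replicate numbers and lines are group means of 3 libraries. The MCAO libraries lie above sham LN in 7 genes, and MCAO replicate 2 is the lowest of the MCAO libraries in each of the 10.

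Hspa5 encodes BiP, the main chaperone of the ER lumen and the protein that holds the stress sensors inactive. It measured 437, 321 and 816 CPM in MCAO (replicate 1, replicate 2 and then the unnumbered column, an order kept for every gene), against 235, 251 and 267 CPM in sham LN. Every MCAO library was above the sham range, and the unnumbered library was far above the others. The log2 change was 1.06 ± 0.31 (SE, adjusted p = 0.0363, edgeR), and without the unnumbered library it was 0.59 and no longer past the threshold. The call was also lost without MCAO replicate 1 or any sham LN library, where the change was 1.01 to 1.11. In pontine infarction Hspa5 measured 659.7, 439.5 and 335 CPM, against 276, 296 and 290.4 CPM in sham PN. These groups did not overlap either, but the change of 0.73 ± 0.31 did not pass (adjusted p = 0.196, edgeR). The gene thus stood above its shams in all 6 stroke libraries, with the largest spread among the 3 ER folding genes.

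Pdia4, a disulfide isomerase of the ER that works with BiP, had a smaller change than Hspa5 in MCAO. Its levels were 59.8, 57.1 and 76.5 CPM in MCAO, against 42.7, 42.8 and 46.0 CPM in sham LN. The groups did not overlap, the unnumbered library was the highest, and Pdia4 rose by 0.56 ± 0.16 on the log2 scale (adjusted p = 0.0313, edgeR). In pontine infarction it measured 128, 90.0 and 104 CPM, against 57.9, 66.7 and 66.4 CPM in sham PN. Again no library overlapped, and the rise was 0.75 ± 0.16 (adjusted p = 0.0246, edgeR). Pdia4 was the only gene of the ER folding group to rise in both strokes, and each call was lost in 5 of the 6 fits that left out 1 library of the comparison, with log2 changes of 0.41 to 0.59 in MCAO and 0.60 to 0.86 in pontine infarction.

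Herpud1, an ER membrane protein that helps to clear misfolded proteins by degradation, passed in neither stroke. It measured 64.4, 52.3 and 75.2 CPM in MCAO, against 60.1, 64.6 and 60.1 CPM in sham LN. MCAO replicate 2 was the lowest and the unnumbered library the highest of the 6, so the groups overlapped. The log2 change was 0.05 ± 0.18 (adjusted p = 0.855, edgeR), with a 95% interval of -0.34 to 0.45. In pontine infarction Herpud1 measured 65.7, 74.1 and 90.8 CPM, against 71.4, 74.3 and 101 CPM in sham PN, a change of -0.09 ± 0.18 (adjusted p = 0.793, edgeR; interval -0.49 to 0.30). It is the gene whose printed promoter stretch holds both the second ER stress form and a CEBP-ATF element.

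Xbp1, the transcription factor that IRE1 activates by splicing its mRNA, measured 187, 133 and 244 CPM in MCAO, against 106, 102 and 103 CPM in sham LN. The sham libraries were tight and every MCAO library lay above them. Xbp1 rose by 0.86 ± 0.21 (adjusted p = 0.0188, edgeR), a call lost in 5 of the 6 fits without 1 library (log2 change 0.63 to 0.96 over the 6). In pontine infarction it measured 207, 129 and 158 CPM, against 109.8, 107 and 118 CPM in sham PN. The groups did not overlap, and the change of 0.56 ± 0.21 did not pass (adjusted p = 0.155, edgeR). Like Hspa5, Xbp1 was above its shams in all 6 stroke libraries; the difference between its responses, 0.30 ± 0.30, did not pass (adjusted p = 0.762, edgeR).

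Atf4, the transcription factor at the centre of the integrated stress response, measured 323, 199 and 324 CPM in MCAO, against 136, 138 and 129 CPM in sham LN. Every MCAO library was above the shams, with replicate 2 nearest to them. Atf4 rose by 1.07 ± 0.18 (adjusted p = 0.00444, edgeR), and no alternative fit removed the call. In pontine infarction Atf4 measured 191, 141 and 182 CPM, against 175, 163 and 176 CPM in sham PN. Replicate 2 was the lowest of the 6 and replicate 1 the highest, so the groups overlapped, and the change was 0.00 ± 0.18 (adjusted p = 0.995, edgeR; 95% interval -0.40 to 0.40).

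Ddit3 encodes CHOP, a factor that ATF4 induces and that promotes cell death under lasting stress. It measured 28.3, 13.9 and 23.6 CPM in MCAO, against 12.6, 10.002 and 11.6 CPM in sham LN. MCAO replicate 2 lay just above the highest sham. The rise was 0.95 ± 0.23 (adjusted p = 0.0168, edgeR), and the call was lost without MCAO replicate 1, where the change was 0.64, and without the unnumbered library or sham LN replicate 2 or 3. In pontine infarction Ddit3 measured 22.2, 19.6 and 19.2 CPM, against 19.8, 21.8 and 23.1 CPM in sham PN. The groups overlapped, with a change of -0.08 ± 0.22 (adjusted p = 0.860, edgeR; interval -0.57 to 0.41).

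Trib3, a pseudokinase that ATF4 and CHOP induce and that restrains both, had few counts in the shams. Its counts were 294, 49 and 102 in MCAO, against 9, 4 and 3 in sham LN, or 14.1, 2.42 and 4.93 CPM against 0.237, 0.148 and 0.115 CPM. The MCAO libraries spread widely and all lay above the shams. Trib3 rose by 5.35 ± 0.72 (adjusted p = 0.00191, edgeR), with a change of 4.31 to 5.71 when each library was left out. The gene passed the filter through its stroke libraries, and the size of the change rests on a sham level close to 0. In pontine infarction its counts were 43, 42 and 61, against 3, 8 and 7 in sham PN, or 1.999, 0.982 and 2.28 CPM against 0.129, 0.302 and 0.251 CPM. The groups did not overlap, and Trib3 rose by 2.90 ± 0.68 (adjusted p = 0.0376, edgeR). That call was lost in 5 of the 6 fits that left out 1 library, and with limma voom (adjusted p = 0.164), while the change stayed at 2.63 to 3.19 in those 6 fits.

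Sesn2, a stress sensor protein that ATF4 induces and that curbs mTORC1 signalling, measured 64.4, 26.5 and 50.4 CPM in MCAO, against 18.7, 22.1 and 16.2 CPM in sham LN. Each MCAO library was above the shams, and replicate 2 was again the nearest. Sesn2 rose by 1.31 ± 0.27 (adjusted p = 0.0089, edgeR); the call was lost with MCAO and sham LN alone in the fit (adjusted p = 0.053) and with the replicate block, which also leaves out the unnumbered library (adjusted p = 0.0606). In pontine infarction it measured 31.4, 37.9 and 39.3 CPM, against 26.2, 31.2 and 32.1 CPM in sham PN. Replicate 1 lay within the sham range, and the change was 0.28 ± 0.26 (adjusted p = 0.567, edgeR).

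Chac1 and Asns, both textbook ATF4 targets, did not pass in either stroke. Chac1 encodes an enzyme that degrades glutathione, and measured 18.8, 12.5 and 19.8 CPM in MCAO, against 15.1, 14.8 and 12.7 CPM in sham LN. MCAO replicate 2 was the lowest of the 6, and the change was 0.26 ± 0.20 (adjusted p = 0.374, edgeR). In pontine infarction Chac1 measured 20.8, 18.6 and 16.8 CPM, against 20.2, 23.2 and 28.7 CPM in sham PN, a change of -0.36 ± 0.20 (adjusted p = 0.331, edgeR). Pontine infarction replicate 1 alone reached the sham range. Asns encodes asparagine synthetase, and measured 82.0, 66.5 and 84.9 CPM in MCAO, against 58.6, 73.8 and 56.1 CPM in sham LN. Here sham LN replicate 2 lay above MCAO replicate 2, and the change was 0.31 ± 0.15 (adjusted p = 0.152, edgeR). In the other stroke Asns was at 58.0, 64.0 and 57.6 CPM in pontine infarction, against 55.9, 66.0 and 56.9 CPM in sham PN, with a change of 0.01 ± 0.15 (adjusted p = 0.984, edgeR; interval -0.31 to 0.32).

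**Figure D2:**
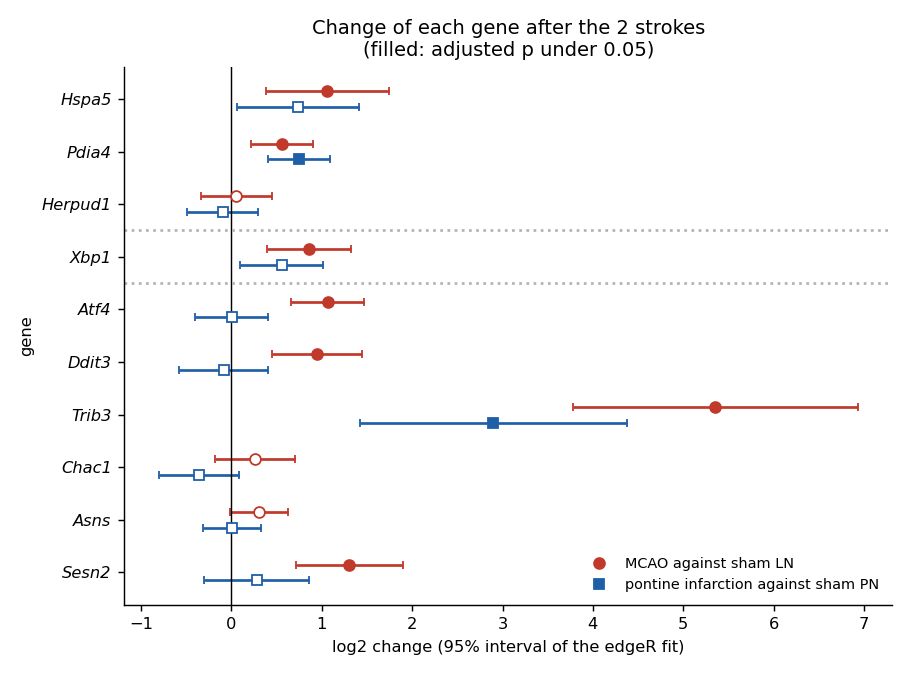
Log2 change of each gene against its own sham group, with 95% intervals, for MCAO and pontine infarction; filled points passed an adjusted p of 0.05. Atf4, Ddit3 and Sesn2 are at 1.07, 0.95 and 1.31 in MCAO and at 0.00, -0.08 and 0.28 in pontine infarction, and Pdia4 is at 0.56 in MCAO and 0.75 in pontine infarction.

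The 3 genes of ER folding and degradation (Hspa5, Pdia4 and Herpud1) were then set beside Atf4 and its 5 targets. Among the ER genes, 2 of 3 rose in MCAO and 1 of 3 in pontine infarction, where 12.5% and 3.21% of all genes tested rose, with median log2 changes of 0.56 and 0.73. None of the 3 rose in MCAO in 5 of the 6 fits that left out 1 library, all but the fit without MCAO replicate 2, and the pontine infarction median was 0.43 without pontine infarction replicate 1. Of Atf4 and its targets, 4 of 6 rose in MCAO, Trib3 among them, and 1 of 6, Trib3, in pontine infarction, with medians of 1.01 and 0.00. Trib3 passed the filter through its stroke libraries, and without it no gene of this group rose in pontine infarction. By library, the median log2 difference of the ER genes from their sham mean was 0.45, 0.36 and 0.80 in MCAO and 1.01, 0.50 and 0.22 in pontine infarction. That of Atf4 and its targets was 1.29, 0.39 and 1.16 in MCAO and 0.06, -0.01 and 0.02 in pontine infarction. The ER medians of the strokes overlapped between libraries, and those of the 6 genes of the Atf4 group did not. The same medians over the 27 further ATF4 targets described below did overlap, at 0.96, 0.26 and 0.67 in MCAO and 0.29, 0.06 and 0.31 in pontine infarction. Means, into which the large Trib3 differences enter, read otherwise in pontine infarction. There they were 0.48, 0.26 and 0.47 for Atf4 and its 5 targets and 0.63, 0.33 and 0.365 for the 3 ER genes. In MCAO these means were 1.84, 0.78 and 1.51 for the Atf4 group and 0.44, 0.17 and 0.93 for the ER genes. The medians and means are descriptions of small groups of genes and carry no test.

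**Figure D3:**
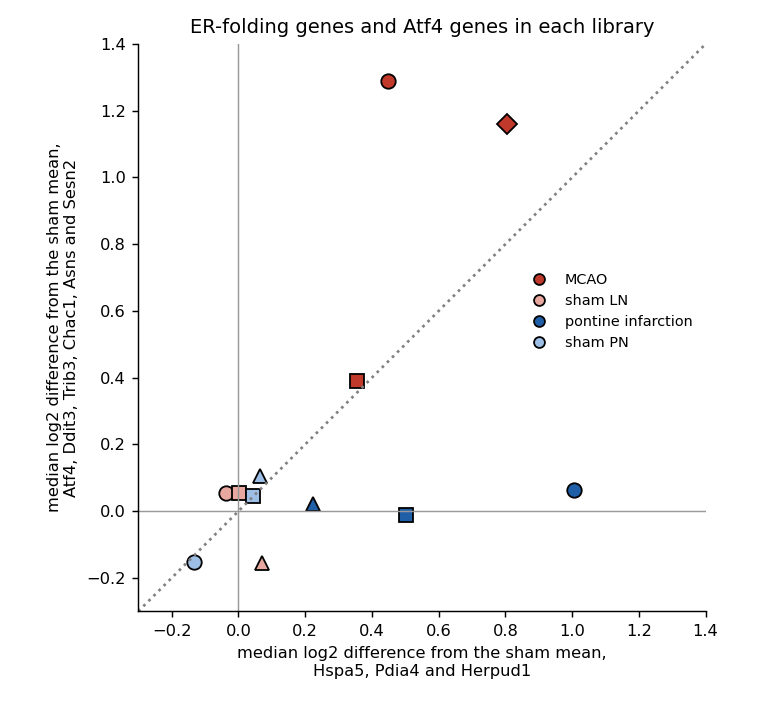
Median log2 difference from the mean of the matched sham group, for Atf4 and its targets against the ER folding genes, 1 point per library; the circle, square and triangle are replicates 1, 2 and 3, the diamond is the unnumbered MCAO library, and the dotted line marks equal values. The pontine infarction libraries lie near 0 for the Atf4 group (-0.01 to 0.06) and at 0.22 to 1.01 for the ER genes. By the mean, not drawn, the Atf4 group was at 0.26 to 0.48 in those libraries.

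Whether the strokes differ was tested gene by gene, as the MCAO response minus the pontine infarction response. None of the 10 genes passed in edgeR, and 0% of all genes tested did. At an unadjusted p under 0.05 there were 4 of the 10, all with the larger rise in MCAO, beside 1826 of the 17008 genes tested. They were Atf4 (1.06 ± 0.26, adjusted p = 0.261), Ddit3 (1.03 ± 0.32, adjusted p = 0.316), Sesn2 (1.03 ± 0.37, adjusted p = 0.379) and Trib3 (2.45 ± 0.96, adjusted p = 0.404). Of these, Trib3 had passed the filter through its stroke libraries. DESeq2 called 1 of the 10, Atf4, and limma voom called 0, with 3 at an unadjusted p under 0.05. Without MCAO replicate 2, edgeR called Atf4, Ddit3 and Sesn2, in a fit where 970 of 17529 genes were called. In the 11 other fits that left out 1 library it called none of the 10, and without MCAO replicate 1 only Atf4 had an unadjusted p under 0.05. For the ER genes the difference was 0.33 ± 0.43 in Hspa5 (adjusted p = 0.831, edgeR), -0.19 ± 0.22 in Pdia4 (adjusted p = 0.796) and 0.15 ± 0.25 in Herpud1 (adjusted p = 0.877). The 95% interval of Hspa5 ran from -0.62 to 1.28 and that of Pdia4 from -0.68 to 0.29, so differences of that size in either direction were not resolved.

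The sham groups themselves differed. Of the 10 genes, 3 were lower in sham LN than in sham PN, where 11.3% of all genes tested were: Ddit3 (-0.92 ± 0.23, adjusted p = 0.0133, edgeR), Chac1 (-0.76 ± 0.20, adjusted p = 0.0198) and Pdia4 (-0.54 ± 0.16, adjusted p = 0.0291). Ddit3 averaged 11.4 ± 1.30 CPM in sham LN and 21.5 ± 1.68 CPM in sham PN (SD, n = 3 each). Its level in MCAO, 22.0 ± 7.35 CPM, was therefore close to that of sham PN. In 8 of the 10 genes every sham LN library lay below every sham PN library, as in 29.2% of all genes, and in none did they lie above, as in 21.7%. The median log2 change over all genes was -0.11 between the shams. These calls also turned on single libraries, with 0 of the 10 passing without sham LN replicate 2, 1 without sham LN replicate 3 or sham PN replicate 2 or 3, 2 without sham LN replicate 1 and 3 without sham PN replicate 1. The oligodendrocyte markers summed to 13227 to 19211 CPM in sham LN and 37572 to 47442 CPM in sham PN, and the part of this difference in the sham levels was not tested.

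Wider lists of the same pathways were read off the same fit. In it, 12.5% of all genes tested rose and 6.07% fell in MCAO, and 3.21% rose in pontine infarction. Among 16 further ER chaperones and folding enzymes, 4 rose and none fell in MCAO, with a median log2 change of 0.58. They were P4hb, a disulfide isomerase (1.75 ± 0.34), Ero1l, the oxidase that recharges it (1.02 ± 0.23), Sdf2l1, a BiP cofactor (0.79 ± 0.24), and Pdia3 (0.64 ± 0.18). In pontine infarction 2 of the 16 rose, Sdf2l1 (1.34 ± 0.24) and Pdia6 (0.62 ± 0.15), with a median of 0.52. P4hb averaged 539 ± 283 CPM in MCAO and 160.0 ± 2.97 CPM in sham LN (SD, n = 3 each), and it alone of this list was called in MCAO under every alternative. With 1 library left out, 1 to 9 of the 16 rose in MCAO and 0 to 3 in pontine infarction; the median was 0.32 in MCAO without the unnumbered library and 0.29 in pontine infarction without its replicate 1. Of the 13 with a promoter entry, 6 held the ER stress element (Calr, Canx, Creld2, Dnajc3, Ero1b and Hsp90b1) and 1 its second form (Hyou1), and none of these was among the genes just named.

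Of 13 tested genes listed under ER-associated degradation and translocation, 4 rose in MCAO: Sec24d, which itself acts in neither process (1.33 ± 0.28), Edem1, which marks misfolded glycoproteins for degradation (1.03 ± 0.26), Sec61a1, the translocation channel (0.81 ± 0.24), and Ssr1 (0.53 ± 0.16). The median was 0.24, and 12.5% of all genes tested rose in MCAO. Edem1 was the 1 gene of the list that rose in pontine infarction (1.02 ± 0.26, adjusted p = 0.0482, edgeR), where the median was 0.14 and 3.21% of all genes tested rose. With 1 library left out, 1 to 5 of the 13 rose in MCAO and 0 to 1 in pontine infarction; the median was 0.15 in MCAO without replicate 1, and in pontine infarction 0.036 without replicate 3 and 0.093 without sham PN replicate 3. Herpud1, which works in the same process, had changes of 0.05 and -0.09 in the same comparisons.

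Of 27 further ATF4 targets tested, 14 rose and 2 fell in MCAO, with a median of 0.55. Of all genes tested, 12.5% rose and 6.07% fell in MCAO, so 2 falls of 27 are near the background. Genes with few sham counts were not set apart in the counts of this list. The 14 can therefore include genes that passed the filter through the stroke libraries, as Trib3 did. The largest changes were in Atf3, a stress transcription factor (6.32 ± 0.78), Gdf15, a secreted stress cytokine (5.82 ± 1.15), Cebpb, a transcription factor also prominent in inflammation (4.05 ± 0.80), and Aldh18a1, an enzyme of proline synthesis (2.59 ± 0.46). Each of these 4 was called under every alternative. The 2 that fell were enzymes of amino acid synthesis, Psat1 of the serine pathway (-1.36 ± 0.22, adjusted p = 0.00317, edgeR) and Gpt2 (-0.72 ± 0.19, adjusted p = 0.0229), named after their values were seen. The fall of Psat1 was also called under every alternative, and that of Gpt2 was not. In pontine infarction 2 of the 27 rose, Atf3 (3.89 ± 0.68, adjusted p = 0.0145, edgeR) and Eif4ebp1, a brake on translation initiation (2.04 ± 0.44, adjusted p = 0.0269), with a median of 0.18. Of all genes tested, 3.21% rose there. Atf3 averaged 27.9 ± 19.9 CPM in MCAO and 0.330 ± 0.251 CPM in sham LN, and 17.9 ± 6.57 CPM in pontine infarction and 1.204 ± 0.325 CPM in sham PN (SD, n = 3 each). The size of its MCAO change rests on that low sham LN level. With 1 library left out, 8 to 13 rose in MCAO and 0 to 4 in pontine infarction; the median was 0.36 in MCAO without replicate 1 and 0.082 in pontine infarction without replicate 3.

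The cytosolic aminoacyl-tRNA synthetases, which load amino acids on tRNA and include many ATF4 targets, gave 6 of 12 genes that rose in MCAO and 0 of 12 in pontine infarction, with medians of 0.48 and -0.13. Of all genes tested, 12.5% rose in MCAO. At 3.21% of all genes rising in pontine infarction, 0 of 12 is near the background. Among the 6 that rose in MCAO were Tars (0.83 ± 0.17), Eprs (0.78 ± 0.18), Mars (0.64 ± 0.16) and Cars (0.61 ± 0.15). The MCAO count was 0 to 7 when 1 library was left out and 0 with MCAO and sham LN alone in the fit, and the median was 0.29 without the unnumbered library. In pontine infarction it was -0.19 without sham PN replicate 1 and -0.057 without sham PN replicate 3. CEBP-ATF elements were found in 5 of the 11 synthetase promoters with an entry, in 3 of 26 promoters of the ATF4 target list and in 1 of the 6 of Atf4 and its targets. Of 14 tested sensors, eIF2alpha kinases and phosphatases and their relatives, 4 rose in MCAO and none in pontine infarction, with medians of 0.34 and 0.03. Beside the same 12.5% and 3.21% of all genes, 0 of 14 in pontine infarction is near the background. The 4 that rose were Creb3l1 (1.99 ± 0.40), Eif2ak2, the kinase PKR that senses double-stranded RNA (1.09 ± 0.34), Eif2s1, which encodes eIF2alpha itself (0.76 ± 0.19), and Creb3 (0.57 ± 0.15). All 4 calls were lost with MCAO and sham LN alone in the fit. That of Eif2ak2 (adjusted p = 0.0465, edgeR) was also lost with DESeq2 size factors, no filter, limma voom and the replicate block. Of the fits without 1 library, only that without MCAO replicate 2 kept it. With 1 library left out, 1 to 6 of the 14 rose in MCAO, with a median of 0.21 without MCAO replicate 1 and 0.22 without the unnumbered library. Over all 5 lists, 5 of the listed genes were not tested: Derl3 and Fgf21 had too few counts, Slc7a3 and Mbtps2 are listed at 0 in all 12 libraries, and Derl2 is not analysed here. A gene listed at 0 throughout is not read as absent.

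**Figure D4:**
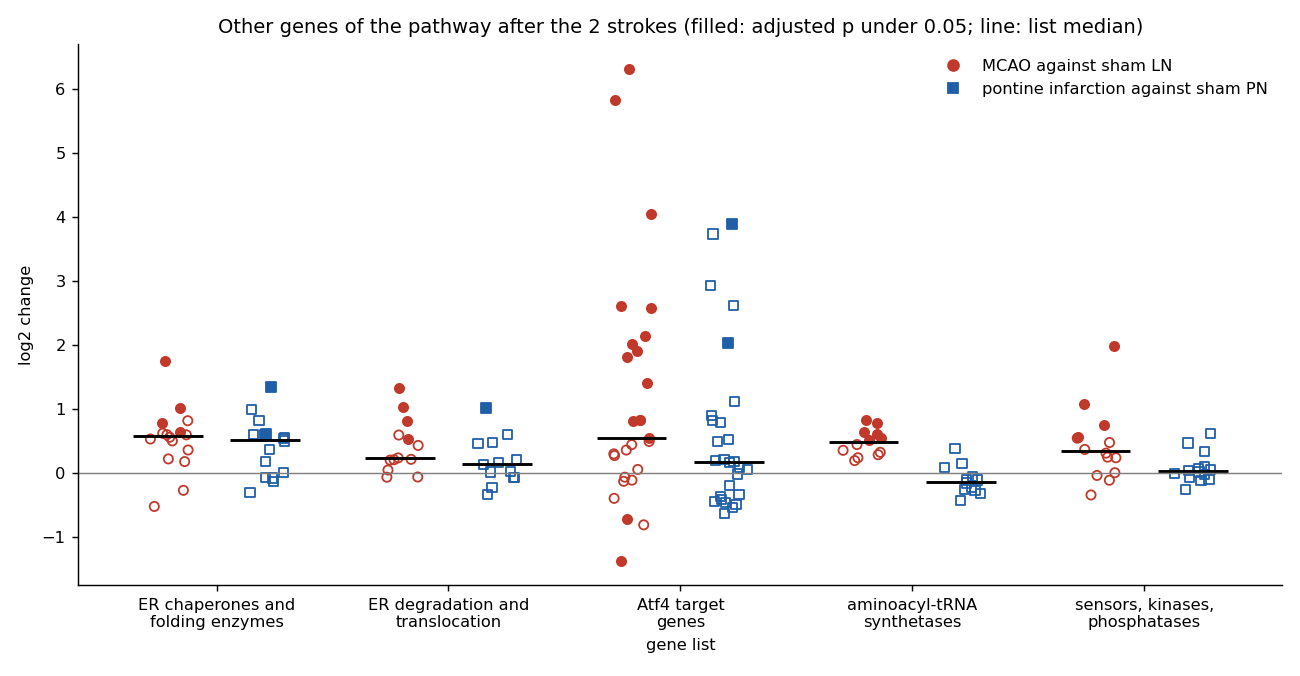
Log2 change of every tested gene of the 5 wider lists, for MCAO and pontine infarction against their shams; points are genes, filled where the adjusted p was under 0.05, and the line is the list's median. The aminoacyl-tRNA synthetases have a median of 0.48 in MCAO and -0.13 in pontine infarction, and the ER chaperones 0.58 and 0.52.

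Across the 12 libraries, the genes whose log2 level followed Hspa5 most closely, among 11817 genes averaging at least 5 CPM, were Dnajc3, an ER cochaperone of BiP (Pearson r = 0.97), Pdia3 (0.95) and Xpo1, a nuclear export receptor (0.95). Those closest to Ddit3 were Clic4 (0.98), Rftn1 (0.97) and Slc35e3 (0.97). Among the members, r with Atf4 was 0.84 for Trib3, 0.83 for Sesn2, 0.70 for Ddit3, 0.69 for Asns and 0.27 for Chac1. With the ER genes and Xbp1, Atf4 had an r of 0.70 for Hspa5, 0.29 for Pdia4, 0.08 for Herpud1 and 0.83 for Xbp1. The highest r of any pair of members was 0.93, between Hspa5 and Xbp1. These are descriptions over libraries that share groups and depth, with no test.

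**Figure D5:**
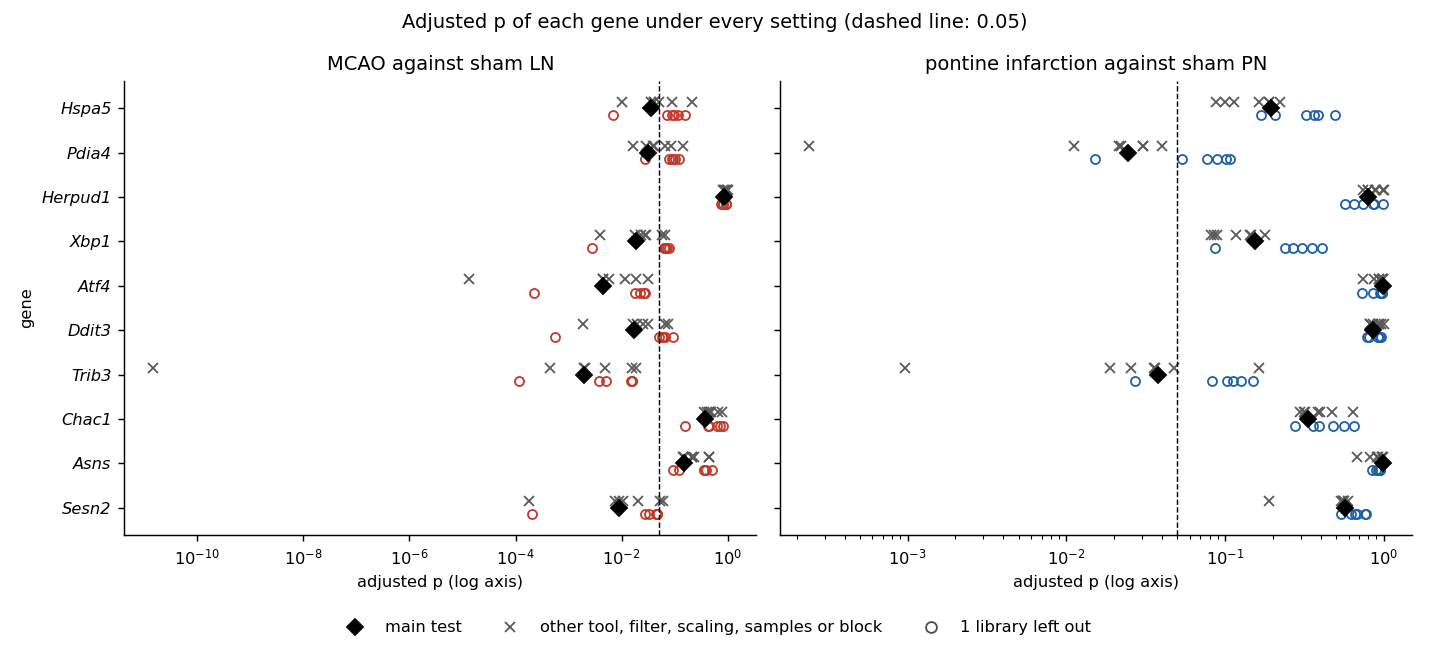
Adjusted p (log axis) of each of the 10 genes in MCAO and pontine infarction against their shams; black diamonds are the edgeR test reported here, crosses are other tools, filters, scalings, samples or the block, open circles are fits with 1 library left out, and the dashed line is at 0.05. Atf4 stays left of the line in MCAO in every fit, with adjusted p of 0.000223 to 0.0276 when 1 library was left out.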

How the data were processed

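RNA-seq read counts per gene were deposited by the authors as 1 table for all 12 libraries, as raw whole-number counts. Reads were aligned with HISAT2 to Rnor_6.0, per the submitters' processing notes; not given in the sources used here: counting tool, annotation and strand setting, so reads of overlapping genes may be split. Genes were filtered with filterByExpr (minimum count 10, minimum total 15), which kept 17008 of 37209 symbols (45.7%); the genes left out held 0.0453% of counts. Fits used edgeR 4.0.16 in R 4.3.3 (TMM, glmQLFit and glmQLFTest, 2-sided, all 12 libraries, group means). The alternatives were DESeq2 1.42.0 and its size factors, limma 3.58.1 voom, no filter, 1 CPM in 3 libraries, only the compared libraries, a replicate block and each library left out. The steps were tested on simulated data. No pair of libraries agreed within sampling noise. The 10 members and all lists were chosen with earlier results of these data known. From each wider list, the text names up to 4 genes per stroke with the largest called change and at least 5 CPM, and for Hspa5 and Ddit3 the 3 genes of most like pattern.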

Additional observations from a re-analysis of the deposited data

How the results depend on the processing

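The replicate block also leaves out the unnumbered MCAO library, which has no number, so its values cannot be put down to the block alone. The number of genes called in MCAO, 3163, was 1354 with only the compared libraries and 1389 with the replicate block (1268 rises and 249 falls without the unnumbered library and with no block), and 1137 to 6169 with each library left out in turn. In pontine infarction it was 694, but 1738 with DESeq2, 315 with limma voom and 6 to 965 with each library left out. For the difference of the responses it was 0, but 238 with DESeq2, 1 with no filter and 0 to 970 with each library left out. Between shams it was 3625, but 6365 with only the compared libraries and 2334 to 2662 with each library left out. Of the 10 members, the 7 calls in MCAO were 2 with only the compared libraries, 2 with the replicate block (3 without the unnumbered library alone) and 3 to 7 with each library left out. The 2 calls in pontine infarction were 1 with limma voom and 0 to 2 with each library left out. The 0 calls of the difference were 1 with DESeq2 and 0 to 3 with each library left out, and the 3 between shams were 1 with no filter and 0 to 3 with each library left out. The cause of these shifts was not tested.

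The direction turned in Herpud1, Atf4, Ddit3 and Asns, where the reported values lay between -0.09 and 0.15, and in the Hspa5 difference of 0.33. With no filter, Herpud1 was -0.042 in MCAO, 0.0027 in pontine infarction and -0.044 in the difference, and Ddit3 was 0.014 in pontine infarction. With only the compared libraries, Herpud1 was 0.0098 and Ddit3 0.020 in pontine infarction. Atf4 in pontine infarction was -0.0076 with limma voom and -0.010 with the replicate block, and the difference of Hspa5 was -0.18 with the replicate block and -0.14 without the unnumbered library alone. With each library left out, Herpud1 ran from -0.079 to 0.088 in MCAO, -0.23 to 0.076 in pontine infarction and -0.039 to 0.28 in the difference. Likewise, Atf4 ran from -0.085 to 0.12 and Asns from -0.046 to 0.085 in pontine infarction, Asns from -0.054 to 0.16 between shams and the difference of Hspa5 from -0.14 to 0.63. With no filter the median log2 of all genes in the difference was -0.12 in place of 0.08, and 56.9% in place of 67.4% of MCAO calls were rises; with DESeq2 it was 55.2%. Without MCAO replicate 2 it was 46.6%, so that falls outnumbered rises, and without the unnumbered library it was 83.6%.

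Whether the replicate numbers pair the libraries is not settled. For libraries of the same number, deviations from the group means correlated at 0.104 and 0.0426 between MCAO and sham LN. Between pontine infarction and sham PN they correlated at 0.0483, 0.150 and 0.154. Libraries of different number were not compared in this way, and the unnumbered library has no partner. With 3 libraries a group, Trib3 in shams rests on 3 to 9 counts a library.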
